A study of Mus musculus with 20 samples.

Results

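The cells described here carried transcripts of G2 and M phase of the cell cycle in the 4 scRNA-seq libraries of cultured macrophages. They were chosen by measured values: the sum of the corrected counts of Ube2c and Cenpf had to be at least 5, and that of S100a8 and S100a9 under 50. Of 20798 cultured cells, 784 met the rule, 225 and 214 from B-MF replicates 1 and 2, and 150 and 195 from Mo-MF replicates 1 and 2. A B-MF is a macrophage-like cell generated from B cells of mouse BM, and a Mo-MF is a macrophage generated from monocytes. Both were generated in 4T1.2-CM, which is medium taken from 4T1.2 breast cancer cells, and were sort-purified before loading. Culture in this medium was thus shared by all 4 libraries, no unexposed culture entered the comparison, and the labels give neither the days of culture nor the strain, age or number of donor mice of these libraries. Nothing in the labels shows that replicates came from separate mice, so p-values measure only the spread between these libraries.

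A dividing cell copies its DNA in S phase, checks and condenses it in G2 and divides it in M phase. Ube2c is the ubiquitin-conjugating enzyme with which the anaphase-promoting complex (APC/C) marks cyclins and securin for destruction, and Cenpf is a kinetochore protein that builds up in G2. Cultured macrophages can re-enter this cycle under CSF1, the ligand of CSF1R, and most genes of G2 and M are switched on late in the cycle by complexes with MYBL2 and FOXM1 that bind CHR elements, often beside CCAAT boxes.

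The promoters of the 5 marker genes and of Cdc20, an activator of the APC/C, are shown so that the rule genes can be read beside other genes of G2 and M. Ube2c and Cenpf chose the cells, so that their high values in the set are fixed by the rule. Each is the stretch of 160 bases just before the gene's start in RefSeq on GRCm38.p6, on the gene's strand. Capitals mark the CHR cores TTTGAA and TTTAAA and the box CCAAT, found on either strand (TTCAAA and ATTGG are TTTGAA and CCAAT on the other strand). Cenpf lies on the minus strand at chr1:189688087-189688246, Ube2c on the plus strand at chr2:164769769-164769928 and Mki67 on the minus strand at chr7:135716380-135716539. Prc1 lies on the plus strand at chr7:80294316-80294475, Cdc20 on the minus strand at chr4:118437344-118437503 and Birc5 on the plus strand at chr11:117849077-117849236.
Cenpf: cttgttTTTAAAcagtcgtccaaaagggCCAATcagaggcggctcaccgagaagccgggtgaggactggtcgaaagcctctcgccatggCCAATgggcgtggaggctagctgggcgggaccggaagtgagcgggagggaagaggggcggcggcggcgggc
Ube2c: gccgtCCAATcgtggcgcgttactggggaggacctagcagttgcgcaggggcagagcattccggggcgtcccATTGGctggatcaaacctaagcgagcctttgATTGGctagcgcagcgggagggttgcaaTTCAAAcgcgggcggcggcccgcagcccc
Mki67: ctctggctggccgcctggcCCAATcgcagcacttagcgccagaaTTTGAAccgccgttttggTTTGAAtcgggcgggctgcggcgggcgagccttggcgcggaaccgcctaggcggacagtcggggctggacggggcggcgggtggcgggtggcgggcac
Prc1: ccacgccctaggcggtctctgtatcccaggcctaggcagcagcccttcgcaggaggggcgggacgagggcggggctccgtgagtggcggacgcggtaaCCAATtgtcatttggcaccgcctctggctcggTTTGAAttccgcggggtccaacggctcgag
Cdc20: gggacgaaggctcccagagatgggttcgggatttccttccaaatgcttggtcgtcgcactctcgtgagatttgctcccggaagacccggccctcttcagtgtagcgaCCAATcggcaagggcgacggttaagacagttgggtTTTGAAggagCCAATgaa
Birc5: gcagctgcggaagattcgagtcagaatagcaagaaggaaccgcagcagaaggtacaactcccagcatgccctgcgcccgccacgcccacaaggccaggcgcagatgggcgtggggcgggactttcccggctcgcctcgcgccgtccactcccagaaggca

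All of the stretches shown but that of Birc5 hold a CHR core with a CCAAT box, and that of Birc5 holds none of these letters. RefSeq gives Prc1 a second window, chr7:80294291-80294450, which holds CCAAT and no CHR core. Longer RefSeq promoters, from 250 bases before to 50 after the start, matched 83 of the 99 genes on the mitotic lists used below. TTTGAA was in the promoters of 51 of them (61.4%), against 20.2% of all 27025 genes with a promoter. Of the 21 genes of S phase that matched, 3 held TTTGAA (14.3%). It was also in 4 of the 7 matched promoters (57.1%) among the 10 genes with the largest lower values in B-MF G2/M cells, and in 1 of 7 (14.3%) among the 10 largest higher ones. TTTAAA was in 18.1% of mitotic genes, 19% of S phase genes and 14.9% of all genes. A core of either kind together with CCAAT was in 53.0% of mitotic genes, 23.8% of S phase genes and 12.2% of all genes.

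The label was checked against the markers. Of a library's G2/M cells, 13.6 to 19.6% also had at least 5 counts of the S phase genes Mcm5 and Mcm6, as given below. In the G2/M cells of B-MF replicates 1 and 2 and Mo-MF replicates 1 and 2, the mean corrected count per cell of Mki67, the proliferation marker that coats mitotic chromosomes, was 12, 11.1, 11.6 and 10.7, and in the other cells under the same S100a8 and S100a9 limit it was 0.242, 0.197, 0.156 and 0.137. Birc5, the survivin subunit of the chromosomal passenger complex, stood at 11.2, 10.3, 11.2 and 10.1 in G2/M cells and at 0.188, 0.15, 0.108 and 0.0928 in the others. Prc1, which bundles the microtubules of the spindle midzone, stood at 5.88, 5.56, 6.94 and 6.56 against 0.0663, 0.0428, 0.0363 and 0.0427. All 3 genes were outside the rule, and each lay far above the other cells in every library, as the plot of markers by library shows. Mki67 had a count in 94.0 to 96.4% of G2/M cells of a library and in 7.35 to 12.2% of the other cells. The rule genes themselves averaged 11.6, 10.6, 13.5 and 11.9 for Ube2c and 8.92, 8.57, 9.66 and 8.55 for Cenpf in G2/M cells, which is how the cells were chosen.

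**Figure D1:**
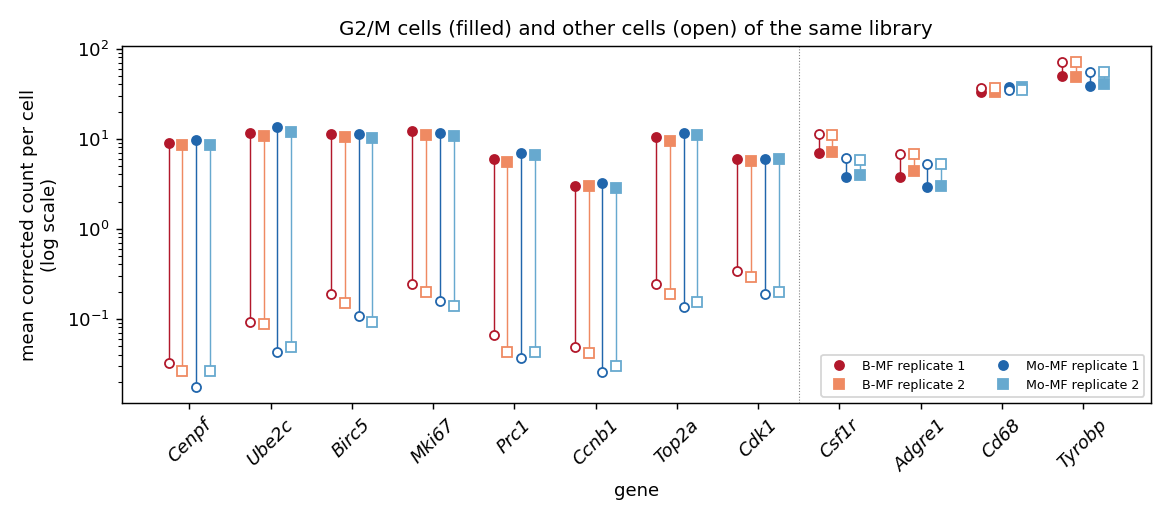
Mean corrected count per cell (log axis) of cell cycle and macrophage genes in G2/M cells (filled) and in other cells under the same S100a8 and S100a9 limit (open), with a line joining both means of each of the 4 libraries. Mki67 runs from 0.137 to 0.242 in other cells and from 10.7 to 12 in G2/M cells, whereas Csf1r, Adgre1 and Tyrobp are lower in the G2/M cells of each library.

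The edge of the set was gradual. The median sum of Ube2c and Cenpf in G2/M cells was 15 and 16 in B-MF, against 14 and 16 in Mo-MF, and the highest sums were 98, 79, 132 and 76. Just inside the threshold, at sums of 5 to 6, Birc5 averaged 5.75 in 68 B-MF cells and 6.02 in 46 Mo-MF cells. Just outside, at sums of 3 to 4, it averaged 3.54 in 135 B-MF cells and 3.61 in 63 Mo-MF cells. The limit on S100a8 and S100a9, which are neutrophil and monocyte alarmins, left out 25 and 21 cells of Mo-MF that passed on Ube2c and Cenpf, and none of B-MF. Of these, 20 and 19 had a sum of at least 200, and 1 cell of each Mo-MF library lay just inside the limit with a sum of 10 to 49.

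A G2/M cell had a median of 4704, 4554, 4705.5 and 4680 detected genes in the 4 libraries, and another cell had 3833, 3362, 3868 and 3769. With each cell thinned to 10000 corrected counts, the medians were 3153, 3104, 3127 and 3111 in G2/M cells and 2655, 2451, 2628 and 2585 in the others. The median total of corrected counts per G2/M cell was 19993 to 20128 over the 4 libraries, after SCTransform. Mitochondrial transcripts took a median of 6.33% and 6.58% of the counts of B-MF G2/M cells and 4.65% and 4.90% of those of Mo-MF G2/M cells, and their part in the differences between cultures was not tested. Across the 4 libraries, 45 barcodes occurred in a pair of libraries, and 2 G2/M cells carried such a barcode.

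Macrophage genes were abundant in the set, and markers of other cell types were low or came from few cells. Tyrobp, the signalling adaptor of myeloid receptors, averaged 49.1 and 48.3 in B-MF, against 38.8 and 40.2 in Mo-MF G2/M cells, and the lysosomal protein Cd68 averaged 33.1, 32.7, 37.4 and 37.0. These 2 genes do not separate the set from the Mo-MF cells over the S100a8 and S100a9 limit. Of 945 such cells with Ube2c plus Cenpf under 5, 100% had a count of Tyrobp and 99.5% of Cd68. The B-cell genes Ms4a1 and Pax5 had a count in 0 of 784 G2/M cells, which allows up to 0.383% of cells with a count and does not limit the share that expresses them. Other B-cell genes were detected, Ighm, the heavy chain of IgM, in 51 of 784 cells, the light chain Igkc in 7, Ebf1 in 6 and the receptor subunit Cd79a in 3. Ighm averaged 0.142 and 0.136 in B-MF, against 0.00667 and 0 in Mo-MF, below the 0.373 and 0.351 of the other B-MF cells. Summed over the 12 measured genes of the B-cell list, the level was 2.13 and 1.92 in B-MF, against 1.5 and 1.24 in Mo-MF, mostly from Blnk, an adaptor of receptor signalling. The 4 measured T and NK genes together came to at most 0.03. The 16 genes of neutrophils and their precursors summed to 3.61 and 4.78 in B-MF, against 6.75 and 5.08 in Mo-MF, most of it Mmp8. The 7 measured dendritic cell genes summed to 0.71 and 0.57 in B-MF, against 1.09 and 0.57 in Mo-MF, with Ccr7 and Cd209a at 0 in every library.

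In 6 B-MF cells of the set, 4 of replicate 1 and 2 of replicate 2, the summed count of the fibroblast genes Col1a1, Col1a2, Col3a1, Dcn and Pdgfra was at least 61 and at least 27 respectively, and no other B-MF G2/M cell exceeded 1. These cells had a median of 44 counts of Col1a2 and 82 of the matrix protein Sparc, a count of Mki67 in 6 of 6, of Csf1r in 1 of 6 and of Tyrobp in 1 of 6. No G2/M cell of Mo-MF reached a sum of 5 over these genes. In Mo-MF replicate 1, 2 G2/M cells held 1326 and 315 counts over 7 basophil and mast cell genes. These 2 cells gave that library means of 7.81 for the basophil protease Prss34 and 2.11 for Mcpt8, which were at 0 in the other 3 libraries and at 0.00676 each without the 2 cells. Values without these cells are given below for some of the results that they moved.

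The first comparison asked how large a share of each culture was in the G2/M set. It was 4.30% (exact 95% binomial interval 3.76 to 4.88) and 4.02% (3.51 to 4.58) of the cells of B-MF replicates 1 and 2, against 3.10% (2.63 to 3.62) and 3.62% (3.14 to 4.15) for Mo-MF. Both B-MF libraries lay above both Mo-MF libraries, with means of 4.16 ± 0.197% (SD, n = 2) and 3.36 ± 0.370% (SD, n = 2). The difference of 0.80 percentage points gave p = 0.333 in a two-sided exact permutation test over libraries, which is the smallest p that 2 against 2 libraries allow. Among cells under the S100a8 and S100a9 limit alone, the shares were 4.30, 4.02, 3.46 and 3.98%, a difference of 0.442 percentage points. Intervals cover counting error only.

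S phase cells, the neighbouring stage, were counted under the same S100a8 and S100a9 limit, as a share of all cells of a library. These cells had at least 5 counts of the replication helicase subunits Mcm5 and Mcm6 together and fewer than 5 of Ube2c and Cenpf. They made up 3.28 and 2.40% of B-MF and 2.35 and 2.73% of Mo-MF cells, and the libraries overlapped (p = 0.667, exact permutation test, two-sided). For each S phase cell there were 1.31 and 1.67 G2/M cells in B-MF, against 1.32 and 1.33 in Mo-MF (p = 1, exact permutation test, two-sided). B-MF replicate 2 alone made the B-MF ratio the higher, and without it the difference was -0.01. Of the G2/M cells, 19.6, 13.6, 15.3 and 19% also had at least 5 counts of Mcm5 and Mcm6, with the libraries of the cultures interleaved (p = 1, exact permutation test, two-sided).

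**Figure D2:**
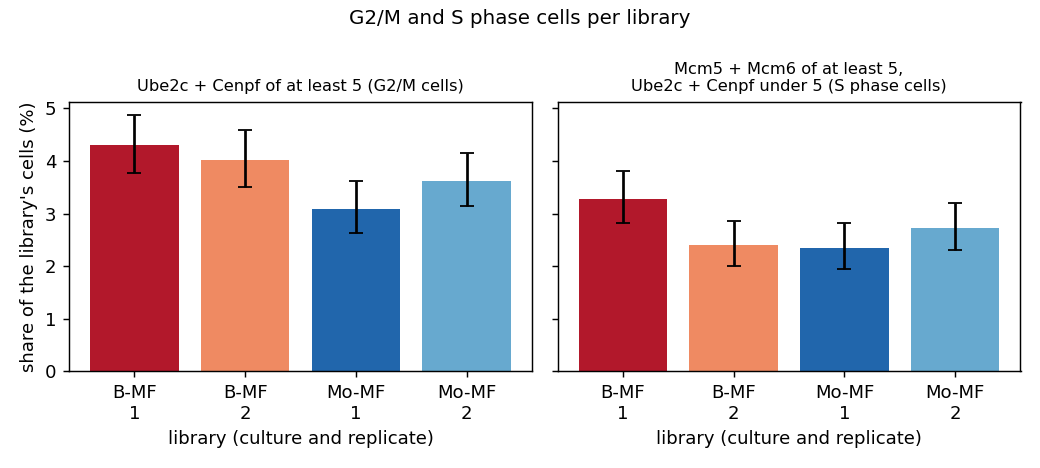
Share of each library's cells in the G2/M set (left) and in S phase (right), in percent, with exact 95% binomial intervals that cover counting error only. The G2/M share is 4.30 and 4.02% in B-MF, against 3.10 and 3.62% in Mo-MF, and the S phase shares of the cultures overlap.

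The set was next laid beside the other cells of its own culture. Because the rule chose cells by genes of the cycle, what follows is a description with no test. Of 9466 genes with a mean of at least 0.1 in G2/M cells, 65.4% lay above the other cells in all 4 libraries and 11.2% lay below them in all 4. All 97 measured mitotic genes that were outside the rule lay above in all 4 libraries, with a median log2 difference of 3.28 in B-MF against 3.44 in Mo-MF on the scale of mean corrected count plus 0.1, against 0.29 and 0.28 over all genes. After the markers, the genes furthest above the other cells were Top2a, the topoisomerase that untangles sister chromatids, at log2 differences of 4.98 in B-MF against 5.54 in Mo-MF, and Hmmr, a spindle protein, at 5.20 and 5.27. They were followed by Hist1h1b, Nusap1, Cenpe, Pclaf, Pttg1, Ccnb2, Tpx2 and Cdca3, all between 4.48 and 5.33 in each culture.

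Of these 97 genes, 30 reached a mean of 0.1 in the other cells. The rest entered only through the G2/M cells, where they are high, and their values rest on the 0.1 added to each mean. Anapc5, a core subunit of the APC/C, averaged 3.21, 3.0, 3.46 and 3.24 in G2/M cells and 1.21, 1.15, 1.04 and 1.0 in the others. S phase genes lay above in all 4 libraries for 25 of 25 with a mean of at least 0.1 in G2/M cells, with medians of 1.56 and 1.85. Of these 25, 17 also reached this mean in the other cells, and the rest entered only through the G2/M cells. Of 17 inhibitors of the cycle and p53 pathway genes, 9 lay above the other cells in all 4 libraries and 3 lay below, against 65.4% and 11.2% of all genes. Among those above were Cdkn2c (p18) at 3.52, 3.31, 2.80 and 2.48 against 0.462, 0.395, 0.192 and 0.172, and Cdkn2d (p19) at 4.31, 4.15, 4.72 and 4.73 against 0.674, 0.624, 0.578 and 0.569.

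Most macrophage genes had lower corrected counts in the set. SCTransform corrects counts for depth, so these values do not measure transcripts per cell. Median totals were 18337 to 19491 in the other cells, beside 19993 to 20128 in G2/M cells. Of 18 macrophage genes, 15 lay below the other cells in all 4 libraries and 1 lay above, against 11.2% and 65.4% of all genes, with median log2 differences of -0.54 in B-MF against -0.35 in Mo-MF. Csf1r, the receptor that drives macrophage growth, averaged 6.97, 7.03, 3.71 and 3.93 in G2/M cells and 11.2, 11, 6.11 and 5.86 in the others. The complement gene C1qa averaged 11.4, 11.8, 9.49 and 8.73 against 22.3, 20.7, 11.2 and 10.9. The genes furthest below, chosen after their values were seen, included Saa3, an acute phase protein, at log2 differences of -2.66 in B-MF against -2.44 in Mo-MF, the cholesterol exporter Abca1 at -1.80 and -1.70, the iron carrier Trf at -1.60 and -1.52, and the selenium carrier Selenop at -1.33 and -1.42. Immediate-early genes lay below in all 4 libraries for 10 of 13, and MHC class II genes for 5 of 5, against 11.2% of all genes.

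Within the set, genes of the cycle differed in how they moved with the sum of Ube2c and Cenpf, which is the rule's own score. Ccnb1, the cyclin that drives entry into mitosis, went from a mean of 0.959 in B-MF cells with sums of 5 to 9 to 2.72 at 10 to 19 and 4.93 at 20 or more, and in Mo-MF from 1.14 to 2.37 and 4.78. Rrm2, the subunit of ribonucleotide reductase that supplies DNA building blocks in S phase, had its highest mean at sums of 10 to 19, 2.47 in B-MF against 2.64 in Mo-MF, and stood at 1.64 and 1.65 in cells with sums of 20 or more. Pcna, the sliding clamp of replication, was 2.15 in B-MF against 4.06 in Mo-MF at sums of 5 to 9 and 2.01 and 2.15 at 20 or more. The cultures thus stood furthest apart in S phase transcripts at low sums and close together at high sums, while Csf1r and Egr1 stayed apart in every bin. Cells of a bin come from the same 2 libraries, and these means carry no test.

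**Figure D3:**
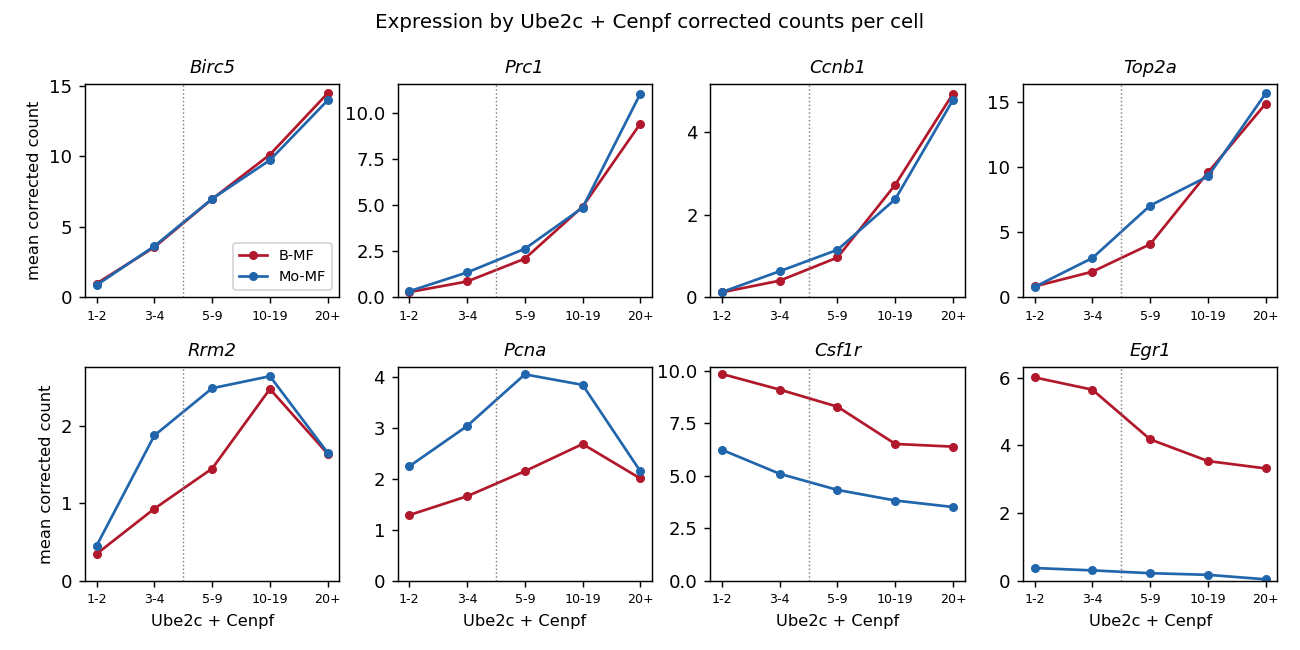
Mean corrected count per cell of 8 genes against the sum of Ube2c and Cenpf, in B-MF (red) and Mo-MF (blue), with the dotted line at the threshold of 5. Birc5 and Ccnb1 run together in both cultures up to 14.5 and 4.93, Pcna stands at 2.15 and 4.06 at sums of 5 to 9 and at 2.01 and 2.15 at 20 or more, while Csf1r and Egr1 are higher in B-MF in all bins.

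The central comparison set the G2/M cells of B-MF against those of Mo-MF, with libraries as replicates. Of 9466 genes tested, 14.3% passed an adjusted p of 0.05 in limma with Benjamini-Hochberg adjustment, 655 genes (6.92%) higher and 697 (7.36%) lower in B-MF. Differences below are log2 differences of the library means plus 0.1, B-MF minus Mo-MF, with their standard error (SE), and adjusted p-values are from this fit. The number of genes was lower when any library was left out, at 363 without B-MF replicate 1, 385 without B-MF replicate 2, 714 without Mo-MF replicate 1 and 885 without Mo-MF replicate 2. It was 1514 without the 6 collagen cells and 1430 without the 2 cells with basophil genes.

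Few genes of the mitotic machinery passed the test between the cultures. The same cut on Ube2c and Cenpf chose the cells of both cultures, so genes that follow this sum were partly matched by the rule. Their small differences are thus not read as a result about the cultures. Of 97 mitotic genes tested, 4 passed the test (4.12%, against 14.3% of all genes), all 4 lower in B-MF, and 95 lay within 0.5 of 0 on the log2 scale, with a median SE of 0.104. The median difference was -0.04, against 0.02 over all genes. Without B-MF replicate 1 or B-MF replicate 2 no mitotic gene passed, and without Mo-MF replicate 1 or Mo-MF replicate 2 there were 1 and 2, where 3.83, 4.07, 7.54 and 9.35% of all genes passed. With all libraries, 16 of the 97 had an unadjusted p under 0.05, as had 3001 of all 9466 genes. Without the 6 collagen cells 1 was higher and 6 lower. The counts were 4 higher and 14 lower with a variance trend in eBayes (23.6% of all genes called), 4 and 11 with a pseudocount of 0.5 (22.8%), 2 and 8 with cells scaled to 10000 counts (22.5%), and 0 and 10 with Ube2c plus Cenpf of at least 3 (16.8%). Mki67 differed by 0.06 (SE 0.104, adjusted p = 0.747, limma), Birc5 by 0.01 (SE 0.105, adjusted p = 0.955) and Prc1 by -0.23 (SE 0.0982, adjusted p = 0.153).

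The 4 genes that passed are regulators of CDK1 or of the APC/C. Pkmyt1, a kinase that holds CDK1 inactive, averaged 0.427 and 0.402 in B-MF, against 0.680 and 0.667 in Mo-MF, a difference of -0.59 (SE 0.0955, adjusted p = 0.00958, limma). Wee1, the nuclear kinase with the same target, averaged 0.529 and 0.575 against 0.867 and 0.815 (-0.53, SE 0.0995, adjusted p = 0.0155). Cdc25b, the phosphatase that reverses this inhibition, averaged 1.52 and 1.35 against 2.04 and 1.91 (-0.44, SE 0.105, adjusted p = 0.0355). In each of these genes both B-MF libraries lay below both Mo-MF libraries, which held for 60.3% of all genes tested in one direction or the other. Fbxo5, the inhibitor of the APC/C also known as EMI1, averaged 1.32 and 1.08 against 1.64 and 1.68 (-0.44, SE 0.118, adjusted p = 0.0498), and the APC/C list had no call with any library left out, with a pseudocount of 0.01 or with no filter on low values. By contrast Ccnb1 (difference 0.00, SE 0.105), Cdk1 (-0.03, SE 0.0968), Plk1 (0.14, SE 0.111) and Foxm1 (-0.21, SE 0.112) did not pass.

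The other mitotic groups had no gene past the threshold, against 14.3% of all genes, but the rule partly matched these genes. With Ube2c plus Cenpf of at least 3, 1 kinetochore, 2 kinesin and spindle and 2 cytokinesis genes were lower (16.8% of all genes called). With a variance trend in eBayes (23.6%), 2 cytokinesis and 1 condensin or chromatin genes were higher, and 2 kinetochore, 2 cytokinesis and 4 condensin or chromatin genes lower. The spindle checkpoint genes, which delay anaphase until kinetochores are attached, ranged from -0.17 (Zwilch) to 0.21 (Mad1l1). The 17 kinetochore genes ranged from -0.34 (Dsn1, adjusted p = 0.066, limma) to 0.18 (Cenpw), and 14 of them were below 0, against 4487 of all 9466 genes. Kinesins and spindle factors ranged from -0.35 (Kif18b, adjusted p = 0.0794, limma) to 0.17 (Kif2c). Cytokinesis genes ranged from -0.36 for Cit, a kinase of the midbody, to 0.36 for Anln, which organizes the contractile ring (adjusted p = 0.0953 and 0.0564, limma). Condensins and chromatin proteins ranged from -0.23 (Tmpo) to 0.22 (Lmnb1), and the chromosomal passenger complex from -0.19 (Aurkb) to 0.06 (Cdca8).

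Of 25 genes of replication tested in G2/M cells, 0 were higher and 4 lower in B-MF, with a median of -0.18. Of all genes, 6.92% were higher and 7.36% lower, 14.3% in either direction. Cdt1, which licenses replication origins, averaged 0.520 and 0.313 in B-MF, against 0.860 and 0.979 in Mo-MF (-1.01, SE 0.187, adjusted p = 0.0146, limma). Cdc45, part of the active helicase, averaged 0.267 and 0.266 against 0.460 and 0.462 (-0.61, SE 0.0935, adjusted p = 0.00763). Mcm3 (-0.54) and Pcna (-0.50) were lower as well. The count was 1 without B-MF replicate 1, 0 without B-MF replicate 2, 3 without Mo-MF replicate 1 and 2 without Mo-MF replicate 2, in fits where 3.83, 4.07, 7.54 and 9.35% of all genes passed. Of 13 histone genes tested, 2 were higher and 0 lower in B-MF, against the same 6.92% and 7.36% of all genes. The higher ones were Hist1h2bc (0.70, SE 0.142, adjusted p = 0.0204, limma) and Hist1h1c (0.61, SE 0.131, adjusted p = 0.0245). Both calls were lost without either B-MF library or without Mo-MF replicate 2, and histone genes have near-identical copies that share reads.

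Inhibitors of the cycle and genes of the p53 pathway, taken as 1 list, split in both directions. In B-MF G2/M cells 2 of 17 tested were higher and 4 lower, against 6.92% and 7.36% of all genes. With any library left out 1 was higher, and without B-MF replicate 1 or B-MF replicate 2, 3 were lower. Cdkn1c (p57), a brake on early cyclin-dependent kinases, averaged 0.0844 and 0.0421 in B-MF, against 0.887 and 1.21 in Mo-MF, a difference of -2.81 (SE 0.173, adjusted p = 0.000196, limma). The stress genes Gadd45a, at 0.453 and 0.407 against 1.96 and 2.10 (-2.01, SE 0.103), and Gadd45b (-1.74, SE 0.108) were also lower. Mdm2, the ligase that degrades p53 and so opposes an inhibitor, averaged 1.06 and 0.967 against 3.13 and 1.66 (-1.10, SE 0.253, adjusted p = 0.0307), and the Mo-MF libraries stood well apart from each other. In the opposite direction, Cdkn2a, the locus of p16 and p19ARF, averaged 0.667 and 0.509 in B-MF, against 0.0400 and 0.0410 in Mo-MF (2.28, SE 0.128, adjusted p = 0.000135). Btg2, an antiproliferative immediate-early gene, was higher by 0.58 (SE 0.147, adjusted p = 0.0424).

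Receptors and early drivers of growth differed in both directions. Of 15 tested, 3 were higher and 4 lower in B-MF, against 6.92% and 7.36% of all genes. Myc, a driver of growth and entry into the cycle, averaged 0.556 and 0.598 in B-MF, against 0.0800 and 0.0974 in Mo-MF (1.84, SE 0.103, adjusted p = 0.000135, limma). Ccnd1, the D-type cyclin that links growth factors to the cycle, averaged 4.41 and 3.21 against 0.900 and 1.08 (1.83, SE 0.164, adjusted p = 0.000895). Csf1r, with the values given above, was higher by 0.86 (SE 0.0960, adjusted p = 0.00218). Receptors for other cytokines were lower, the interleukin-7 receptor Il7r at 1.84 and 1.78 against 5.09 and 4.42 (-1.34, SE 0.108, adjusted p = 0.000562), Csf3r (-1.13) and Csf2rb2 (-0.63), as was the late repressor E2f8 (-0.60). Without B-MF replicate 1 or B-MF replicate 2, 2 rather than 4 genes of this group were lower.

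The largest differences over all genes included that of Cdkn1c, given above. Cell cycle lists hold few of the genes tested, so that most others lay outside them is not read as a result. Id3, an inhibitor of basic helix-loop-helix transcription factors, averaged 4.45 and 3.11 in B-MF G2/M cells and 0.0600 and 0.0410 in Mo-MF G2/M cells, a difference of 4.67 (SE 0.17, adjusted p = 2.67e-05, limma), and Id1, of the same family, averaged 1.24 and 1.39 against 0.0467 and 0.0410 (3.30, SE 0.103, adjusted p = 1.74e-05). Without the 6 collagen cells Id3 averaged 4.24 and 3.09 and Id1 1.17 and 1.38 in B-MF. Slc40a1, the iron exporter ferroportin, averaged 3.26 and 3.09 against 0.347 and 0.385 (2.81, SE 0.101), and St3gal5, which makes the ganglioside GM3, 2.69 and 2.31 against 0.367 and 0.323 (2.55, SE 0.115). Separation of the libraries was a condition for naming these 4 genes, and it held for 60.3% of all genes tested. Sparc (3.0, SE 0.615, adjusted p = 0.021), the actin-binding Cald1 (2.55, SE 0.601), Col1a2 (2.55, SE 0.417) and Aebp1 (2.46, SE 0.394) also ranked among the 10 largest, but they rested on the 6 collagen cells. Sparc averaged 1.68 and 0.262 in B-MF with these cells and 0.00905 and 0.0142 without them, and Col1a2 went from 0.893 and 0.243 to 0.00452 and 0.

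Immediate-early genes, which are transcribed within minutes of a stimulus, were higher in B-MF for 10 of 13 members and lower for 1, against 6.92% and 7.36% of all genes. Their median was 1.15, against 0.02 over all genes. This list, like the others, was chosen with earlier results of these data known, and the paper had already named Egr1, Ier2 and Ier3 for cultured B-MF. Its count beside that of all genes is thus a description. Egr1 averaged 3.8 and 3.50 in B-MF, against 0.113 and 0.154 in Mo-MF (4.01, SE 0.119, adjusted p = 1.74e-05, limma). Nr4a1, an orphan nuclear receptor, averaged 0.60 and 0.668 against 0.0467 and 0.0103 (2.53, SE 0.148), and Ier2 3.19 and 3.07 against 0.647 and 0.605 (2.15, SE 0.0972). Fos (1.07), Fosb (1.92), Junb (0.91), Egr2 (1.15), Egr3 (2.24), Ier3 (1.46) and Btg2 followed. Atf3, a stress-induced repressor, went the other way at 3.56 and 3.73 against 6.57 and 6.84 (-0.86, SE 0.0964, adjusted p = 0.00218), and Jun (-0.31) and Dusp1 (-0.43) did not pass. The number higher was 8 or 9 when any library was left out.

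**Figure D4:**
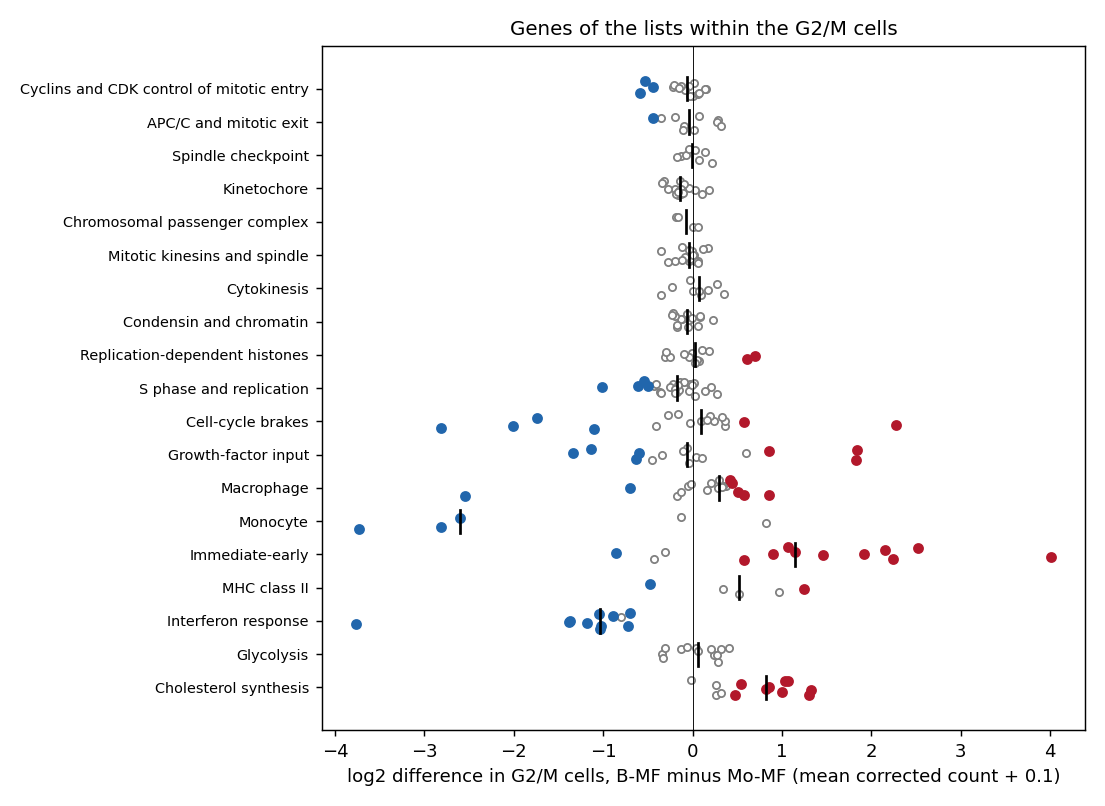
Log2 difference of G2/M cells, B-MF minus Mo-MF (mean corrected count plus 0.1) for the tested genes of 19 lists, 1 point a gene, with filled points at an adjusted p under 0.05 (red higher, blue lower in B-MF, limma) and a black bar at the median of each list. Mitotic lists have a median of -0.04 over 97 genes, but the same cut on Ube2c and Cenpf chose the cells of both cultures. Immediate-early, interferon and cholesterol genes have medians of 1.15, -1.03 and 0.82.

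Interferon-induced genes were lower in B-MF G2/M cells for 10 of 11 tested genes, against 7.36% of all genes, with a median of -1.03, and none was higher. Ly6a, the surface protein Sca-1, averaged 1.13 and 1.62 in B-MF, against 18.6 and 20.7 in Mo-MF, a difference of -3.76 (SE 0.164, adjusted p = 5.56e-05, limma). Irf7, which amplifies the interferon response, averaged 1.43 and 1.59 against 4.01 and 4.19 (-1.39, SE 0.102), and the antiviral Rsad2 0.80 and 0.430 against 1.72 and 1.66 (-1.37, SE 0.223). Usp18, a brake on interferon signalling, was lower too (-1.18, SE 0.154). Ifit1 (-0.80, adjusted p = 0.063) did not pass. Without B-MF replicate 2, 6 of 11 passed, against 4.07% of all genes in either direction.

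Genes of monocytes and macrophages divided, and the shares of all genes to set beside their counts are 6.92% higher and 7.36% lower. Of 5 monocyte genes tested, 3 were lower in B-MF: Plac8, at 0.0711 and 0.0280 against 2.08 and 1.67 (-3.73, SE 0.165), Ms4a4c (-2.81, SE 0.106) and Ccr2, the chemokine receptor of classical monocytes, at 0.173 and 0.00467 against 0.940 and 0.908 (-2.60, SE 0.378, adjusted p = 0.00624, limma). Ly6c2, their defining surface marker, had a count in 0 of 784 G2/M cells, which allows up to 0.383% of cells with a count. Among the 5 monocyte genes tested, 1 was above 0, at 0.82, and did not pass. With a variance trend in eBayes or a pseudocount of 0.5, 1 monocyte gene was higher and 3 were lower, where 23.6 and 22.8% of all genes passed. Of 18 macrophage genes, 5 were higher (Csf1r, Adgre1, Itgam, C1qc and Fcgr3, from 0.42 to 0.86) and 2 were lower. Apoe, the lipid carrier, averaged 47.9 and 38.3 in B-MF, against 251 and 249 in Mo-MF (-2.54, SE 0.126, adjusted p = 9.51e-05). With 1 library left out, the number of higher macrophage genes was 1 without B-MF replicate 1, 1 without B-MF replicate 2, 2 without Mo-MF replicate 1 and 3 without Mo-MF replicate 2, where 3.83, 4.07, 7.54 and 9.35% of all genes passed in either direction.

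Other genes with large negative differences were the chemokine Ccl8, at 1.98 and 2.02 against 27.3 and 24.9 (-3.64, SE 0.0999, adjusted p = 1.74e-05, limma), Arg1, which breaks down arginine, at 0.0533 and 0.0514 against 0.813 and 0.80 (-2.57, SE 0.0938), the focal adhesion gene Tns1 (-2.32, SE 0.101) and coagulation factor F10 (-2.30, SE 0.128). These genes were named only where the libraries of the cultures did not overlap, which held for 60.3% of all genes tested. Of all genes 6.92% were higher and 7.36% lower, to be set beside the following few calls. Of 2 B-cell genes tested, Blnk was higher at 1.80 and 1.56 against 1.11 and 1.01 (0.62, SE 0.112, adjusted p = 0.0137), and Cd79b was lower at 0.0444 and 0.0467 against 0.273 and 0.205 (-1.21, SE 0.121, adjusted p = 0.00141). Of 2 dendritic cell genes tested, Batf3 was higher (0.58, adjusted p = 0.0442, limma). The other, at -0.77, did not pass, but 1 dendritic cell gene was lower with a variance trend in eBayes. Of the 3 neutrophil genes tested, Csf3r and the granule protease Prtn3 (-0.92) were lower, and the other, at 0.10, did not pass. The calls of Blnk and Batf3 were lost without B-MF replicate 1, B-MF replicate 2 or Mo-MF replicate 2. Prss34 (-3.15, SE 1.67, adjusted p = 0.246) and Mcpt8 (-2.23, SE 1.19, adjusted p = 0.247) did not pass.

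Metabolic lists differed from each other. Genes of cholesterol synthesis and uptake were higher in B-MF for 9 of 13, against 6.92% of all genes, with a median of 0.82, and none was lower. Fdps, which makes farnesyl pyrophosphate, averaged 1.77 and 1.33 against 0.493 and 0.615 (1.33, SE 0.156, adjusted p = 0.00266, limma), and Sqle, an enzyme of the committed branch to sterols, 0.760 and 0.617 against 0.213 and 0.221 (1.31, SE 0.117, adjusted p = 0.000888). Mvd, Fdft1, Lss and Dhcr7 did not pass. The count was 7 or 8 when any library was left out. Of 13 glycolysis genes none passed, against 14.3% of all genes, with 7 at an unadjusted p under 0.05 and values from -0.34 (Pfkp) to 0.41 (Pfkl), but the count depended on the setting. It was 5 higher and 3 lower with a variance trend or a pseudocount of 0.5, 3 and 3 with a filter at a mean of 0.5, 2 and 3 with cells scaled to 10000 counts, 1 and 0 without the cells with basophil genes and 0 and 2 without the collagen cells. Of all genes, 23.6, 22.8, 29.5, 22.5, 15.1 and 16.1% passed in these settings. Of 5 MHC class II genes tested, 1 was higher and 1 lower, against 6.92% and 7.36% of all genes. Cd74, the invariant chain, was higher at 3.21 and 2.88 against 1.59 and 0.938 (1.24, SE 0.213, adjusted p = 0.0115) and H2-DMa was lower (-0.47, SE 0.115, adjusted p = 0.0376). Without B-MF replicate 1 or B-MF replicate 2 neither direction had a call, without Mo-MF replicate 1 there were 2 higher and 0 lower, without Mo-MF replicate 2 1 and 0, and without the collagen cells 3 and 1.

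The same contrast was fitted in the other cells under the S100a8 and S100a9 limit, 5009, 5112, 4191 and 4708 per library, where 37.6% of 8516 genes passed, 20.6% higher and 17% lower in B-MF. Both fits use the same 4 libraries, so their values are given side by side. Of 30 mitotic genes that reached the mean of 0.1 in these cells, 12 were higher in B-MF and 0 were lower, with a median of 0.12. The other cells include some with Ube2c and Cenpf below the threshold. A sum of 1 to 2 was found in 589 B-MF and 311 Mo-MF cells, and a sum of 3 to 4 in 135 and 63. Their part in these mitotic values was not tested. Cdk1 averaged 0.340 and 0.294 in B-MF, against 0.187 and 0.200 in Mo-MF other cells (0.50, SE 0.0658, adjusted p = 0.000993, limma), and Mki67 averaged 0.242 and 0.197 against 0.156 and 0.137 (0.37, SE 0.0771, adjusted p = 0.0082). The list medians in other cells were 1.65 for immediate-early, -1.01 for interferon and 0.62 for cholesterol genes, beside 1.15, -1.03 and 0.82 in G2/M cells.

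Whether being in G2/M went with a different change in the cultures was tested on each library's difference between G2/M and other cells. Of 9521 genes tested, 95 passed (0.998%, limma with Benjamini-Hochberg adjustment), 24 (0.252%) with the higher and 71 (0.746%) with the lower difference in B-MF. The 97 mitotic genes are not read as a group here, because only 30 reached a mean of 0.1 in the other cells. The condensin subunit Smc4, at 1.01 and 0.958 in the other cells of B-MF and 0.693 and 0.706 in those of Mo-MF, was the one that passed, and its log2 difference from other cells was 2.69 in B-MF against 3.30 in Mo-MF (difference -0.61, SE 0.0911, adjusted p = 0.0466). The 95 calls depended on single libraries, with 0 left without B-MF replicate 1, 21 without B-MF replicate 2, 57 without Mo-MF replicate 1 and 32 without Mo-MF replicate 2. At an unadjusted p under 0.05, 1913 genes passed with all libraries and 1191 without B-MF replicate 1.

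Several genes differed between the cultures mainly outside G2/M. Fn1, the matrix protein fibronectin, averaged 0.698 and 0.808 in B-MF, against 1.05 and 0.651 in Mo-MF G2/M cells, and 0.429 and 0.476 against 3.12 and 3.34 in the other cells. The libraries overlapped in G2/M cells and were far apart in the others, and the difference of the differences was 2.47 (SE 0.217, adjusted p = 0.0152, limma). Slpi, an inhibitor of neutrophil proteases, averaged 0.329 and 0.215 against 0.240 and 0.195 in G2/M cells and 0.362 and 0.328 against 1.15 and 1.09 in the others (1.67, SE 0.133). Fcrls, an Fc receptor-like scavenger receptor, averaged 1.28 and 1.44 against 1.51 and 1.32 in G2/M cells and 1.72 and 1.5 against 0.463 and 0.425 in the others (-1.70, SE 0.133). Mmp14, a membrane metalloprotease, and Arg1 were lower in B-MF among both kinds of cell, and less so among G2/M cells (1.74, SE 0.180, and 1.12, SE 0.0987). Without the collagen cells the values were 2.07 for Fn1, 1.24 for Slpi and 1.49 for Mmp14, and all 3 passed.

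In other genes the cultures stood further apart inside G2/M. Id1 averaged 0.241 and 0.228 in the other cells of B-MF and 1.24 and 1.39 in their G2/M cells, while in Mo-MF it was at or below 0.0467 in both (1.73, SE 0.105, adjusted p = 0.00856, limma). Ccl8 averaged 7.38 and 6.75 in the other cells of B-MF and 1.98 and 2.02 in their G2/M cells, and 25.5 and 24.0 against 27.3 and 24.9 in Mo-MF (-1.85, SE 0.0980, adjusted p = 0.00761). It was thus lower in the G2/M cells of both B-MF libraries and of neither Mo-MF library. Gdf15, a stress-induced cytokine, averaged 0.227 and 0.147 in other and 0.253 and 0.271 in G2/M cells of B-MF, and 0.180 and 0.137 against 0.953 and 0.836 in Mo-MF (-1.60, SE 0.161). Cd5l, a secreted macrophage protein (-1.49, SE 0.194), and Spn, the sialoprotein CD43 (-1.43, SE 0.135), also had the higher G2/M difference in Mo-MF. Atf3 had this sign too (-0.74, SE 0.0943, adjusted p = 0.0327).

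Btg2 and Cdkn1a (p21) had the same sign, at -1.08 (SE 0.107, adjusted p = 0.0193, limma) and -0.84 (SE 0.112, adjusted p = 0.0374), but the cultures stood further apart outside G2/M. Btg2 differed by 0.58 in G2/M cells and by 1.65 in the others. Cdkn1a averaged 7.23 and 5.90 in G2/M cells and 9.33 and 8.82 in the other cells of B-MF, and 4.93 and 5.21 against 3.97 and 3.8 in Mo-MF.

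**Figure D5:**
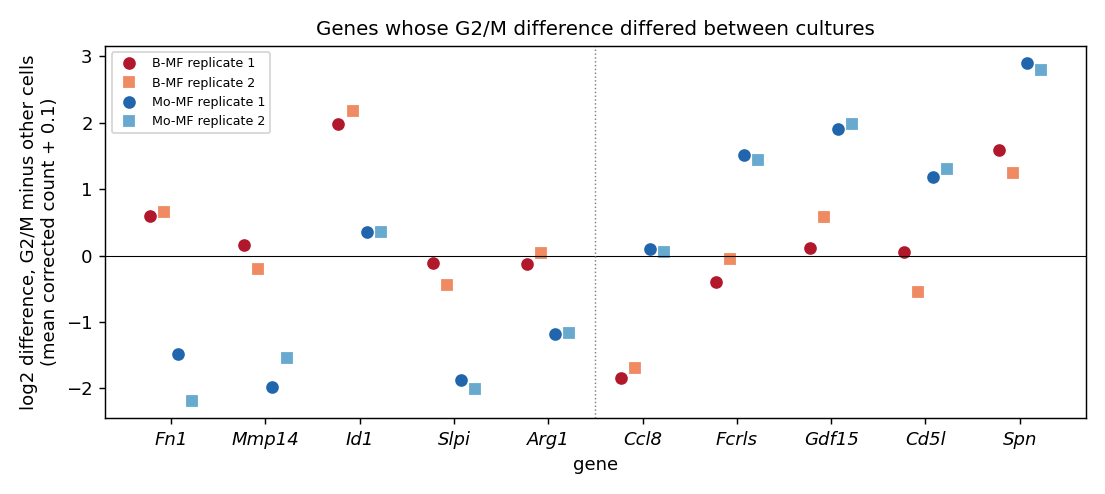
Log2 difference between G2/M and other cells (mean corrected count plus 0.1) in each of the 4 libraries for the 5 genes with the largest higher and the 5 with the largest lower difference in B-MF. Fn1 is at 0.59 and 0.66 in B-MF, against -1.49 and -2.19 in Mo-MF, and Ccl8 at -1.85 and -1.69 against 0.10 and 0.05.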

How the data were processed

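The 4 scRNA-seq libraries used were B-MF and Mo-MF with 2 replicates each, grouped by the sample titles. For these, the authors ran Cell Ranger, applied SCTransform in Seurat to correct counts for depth, kept cells with a minimum number of detected genes and deposited the natural log of 1 plus the corrected count, for 15855 genes in 20798 cells. Each value above 0 was converted back to a whole number within 1e-06. Corrected counts are not raw counts, so no count model was fitted and sequencing depth is unknown. No doublet caller was run.

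Corrected counts were averaged over the G2/M cells, and over the other cells with S100a8 plus S100a9 under 50, in each library. Log2 of the mean plus 0.1, which understates changes of low genes, was compared by limma (lmFit, then eBayes). Genes entered where their mean over the libraries reached 0.1, p-values were adjusted over all of them by Benjamini-Hochberg, and the threshold was 0.05. Ube2c, Cenpf, S100a8 and S100a9 were left out of the tests. The fits were tested on simulated data. Named genes were the markers, the 10 largest differences in each direction between cultures that separated all libraries with a mean of at least 0.5 in the higher culture, the 15 genes furthest above the other cells, the 5 largest culture differences of the G2/M difference in each direction, and up to 4 members a list. Further genes named were chosen after their values were seen. The members and lists were chosen with earlier results of these data known. Same-numbered replicates did not deviate together (r = -0.03 over 9466 genes), so numbers were not taken as pairs. The tools were limma 3.58.1 in R 4.3.3, and numpy 2.4.6, pandas 2.3.3, scipy 1.17.1 and matplotlib 3.10.9 in Python 3.11.15. Alternatives covered pseudocount, filter, centring, thresholds, left-out libraries and cells. ATAC-seq and tumor samples were not used here. Results for some genes are not reported here.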

Additional observations from a re-analysis of the deposited data

Results flagged for a closer look

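The log2 difference between G2/M and other cells differed between B-MF and Mo-MF for 95 genes, by a limma test of that difference itself. The value, B-MF minus Mo-MF, was 2.47 for Fn1, 1.74 for Mmp14, 1.73 for Id1, 1.67 for Slpi and 1.12 for Arg1. It was -1.85 for Ccl8, -1.70 for Fcrls, -1.60 for Gdf15, -1.49 for Cd5l and -1.43 for Spn. None of these 10 genes passed without B-MF replicate 1, and the cause was not tested.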

How the results depend on the processing

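The number of genes differing between the cultures in G2/M cells was 1352, and it was 2157 with a pseudocount of 0.5, 828 with 0.01 and 2236 with a variance trend in eBayes. Leaving out 1 library gave 363 to 885. In other cells the number was 3203, 4995 after centring on the median and 1962 to 5268 with 1 library left out. The number of genes whose G2/M difference differed between cultures, 95, was 706 with a pseudocount of 0.5, 0 with 0.01 (1765 at an unadjusted p under 0.05, limma), 0 with no filter on low values (2642), 344 with a filter at a mean of 0.5, 254 after centring, 217 with Ube2c plus Cenpf of at least 3, 0 with at least 10 (1733), 221 with no S100a8 and S100a9 limit, 319 with cells scaled to 10000 counts and 0 to 57 with 1 library left out. A replicate block on the numbers gave 19. The block gave 1275 genes in G2/M cells, 4569 in other cells, no APC/C gene (Fbxo5 had passed without it) and the same difference in share, 0.8 points. The difference in G2/M cells per S phase cell was -0.0130 to 0.351 with 1 library left out, reversed at -0.0130 without B-MF replicate 2. Against 0.169 as reported, it was 0.0516 with S phase cells defined by Mcm5 plus Mcm6 of at least 3 and 2.58 at 10. The cause of these moves was not tested.

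The difference in share stayed above 0 under every alternative run, from 0.347 points with no S100a8 and S100a9 limit to 1.47 with a threshold of 3. Of the 20 genes named for the G2/M comparison, Sparc, Cald1, Col1a2, Aebp1 and Ccr2 lost their call under at least 1 alternative. None of the 20 changed sign in a fit that tested it. Without the collagen cells Cald1 fell below the filter and was not tested. It then averaged 0.00905 and 0.0142 in B-MF, against 0.02 and 0.0103 in Mo-MF. Alternatives without collagen cells or cells with basophil genes were chosen after seeing the data. With 2 libraries a culture, spread was largely shared across genes, and a lone library was assumed to vary like the others.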
